A study of Rattus norvegicus with 4 samples.

Results

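The comparison described here sets the uterine myometrium of rats 24 h after estradiol benzoate against that of rats 24 h after vehicle. The myometrium is the smooth muscle wall of the uterus, and estradiol benzoate is an ester that releases estradiol slowly under the skin. Both groups were rats aged 60 days whose ovaries had been removed a week earlier, so the controls had little ovarian hormone as well. The treated rats received 10 µg per kg subcutaneously. Tissue of 6 animals was pooled for each group and the pool was measured on 1 Affymetrix RG_U34A array, an oligonucleotide array on which a probe set of short probes reads 1 transcript. These are 2 of the 4 arrays of the series. The other two, labelled control and estradiol at 6 h, serve here only to show which readings a single array holds alone. Of 8799 probe sets, 59 Affymetrix controls were set aside and 8740 were compared. The 7018 that carry exactly 1 gene symbol stand for 4736 genes, each read by its brightest probe set.

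Estradiol acts on the uterus through the estrogen receptor Esr1, a transcription factor of the nuclear receptor family, and it also sets off growth factor signals between the cell layers. In the rodent uterus a dose given after loss of the ovaries is known to cause water uptake within hours and growth of muscle and epithelium over the following day. Growth needs membrane lipid, secretory capacity, protein synthesis and protein turnover, and the muscle layer also changes its receptors for contraction and relaxation.

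There is no replicate array in either group. Every value below therefore compares 1 pool with 1 pool, no difference was tested, and higher and lower describe these pools only. Signals are in the deposited units, scaled by the authors to a trimmed mean of 500, and where a pair of signals is given the estradiol array comes first. A signal counted as measured when it lay above the 40th percentile of its array, 89.5 units with estradiol and 101 units in the control. A gene or probe set counted as higher or lower when it differed at least 2-fold, that is by at least 1 on the log2 scale, with the brighter array above its floor. Where the dimmer array was at its floor the fold is a lower bound and is written as at least N-fold.

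The labels at 24 h were checked against transcripts that estrogen is known to raise in the rat uterus. Igf1, a growth factor, read 5182 against 665, and Pgr, the progesterone receptor, read 2143 against 654. S100g, known as calbindin-D9k and a buffer of calcium, read 12673 against 4619, and Hsd11b2, which inactivates glucocorticoids, read 6123 against 809. All 4 were higher on the array labelled estradiol at 24 h. On the 6 h arrays the same 4 genes went the other way, for Igf1 with 7872 on the array labelled control and 704 on its partner. The 6 h arrays are therefore cited only by their labels. Smooth muscle transcripts were bright on both 24 h arrays. All 7 smooth muscle markers on the array lay within 2-fold, and Acta2, smooth muscle actin, read 17195 against 16652.

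The 24 h arrays were of 1 chip lot and were scanned on 1 day. In the instrument's wash log of the 24 h control a communication error is noted, which the logs of the other 3 arrays lack, and its part in the values was not tested. The 3′ to 5′ signal ratio of Gapdh, a sign of RNA integrity, was 1.15 with estradiol and 1.05 in the control, and that of beta-actin 1.23 and 1.39. Spike-in control transcripts, added to every sample and read by 9 probe sets, were 1.35-fold brighter on the estradiol array.

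Of 3445 genes measured on at least 1 of the arrays, 308 were at least 2-fold higher with estradiol, which is 8.94%, and 298 were at least 2-fold lower, which is 8.65%. Among the higher genes 219 were measured on both arrays and 89 have only a lower bound, and among the lower genes these counts were 232 and 66. At 4-fold 85 genes were higher and 30 lower, and at 8-fold 14 were higher and 1 was lower. Of the 85, 60 were dim on the 24 h control alone, in the sense described below, which leaves 25 higher beside the 30 lower. Of the 14, 8 were, which leaves 6. The median log2 difference over all measured genes was -0.17, with an SD of 0.82 across genes. Scaling the arrays to a common median moved that median by 0.14 and gave 630 probe sets higher and 368 lower in place of 511 and 515. List medians below are therefore read against the -0.17 of all genes. Because that median is negative, most measured genes lay below 0, and counts below 0 are read with that in view. Counts past the rule are read against the 8.94% and 8.65% above.

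**Figure D1:**
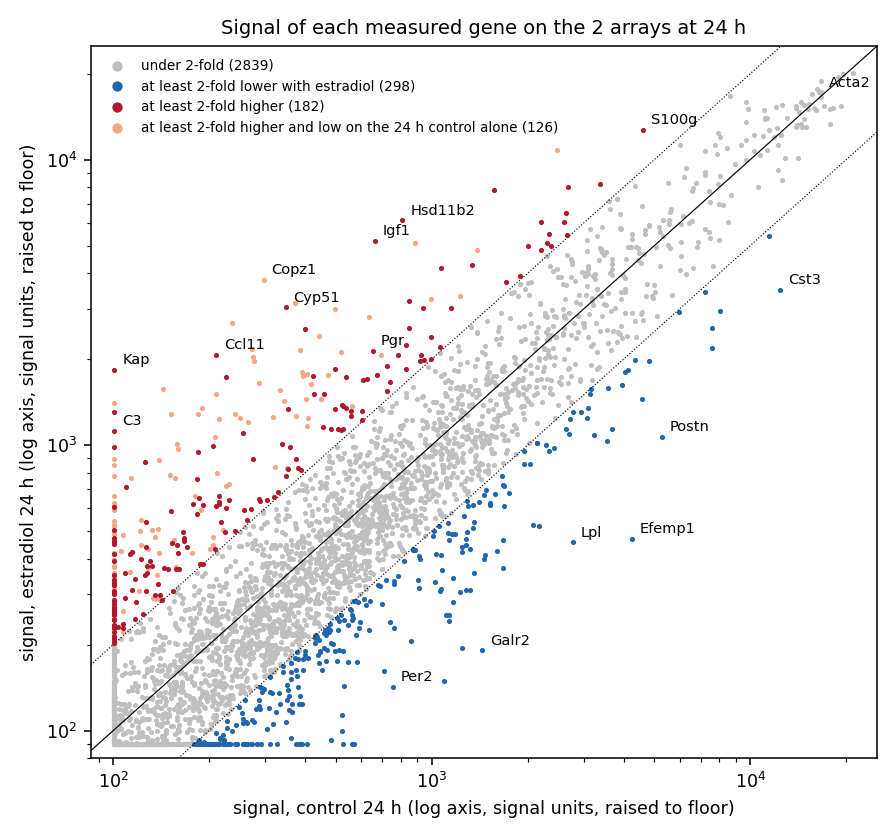
Signal of each measured gene on the control array at 24 h (horizontal, log axis, signal units raised to the floor) and on the estradiol array at 24 h (vertical, log axis, same units), with 1 point per gene. Dotted lines mark 2-fold; 182 genes in dark red and 126 in light red lie above them, the latter dim on the 24 h control alone, and 298 in blue lie below.

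How far single readings can be trusted shows in genes that several probe sets read. By the same rule 8.86% of 5769 measured probe sets counted as higher and 8.93% as lower. There were 1295 pairs of measured probe sets of the same gene, from 787 genes, counting probe sets above the floor on both arrays. Their log2 differences lay a median of 0.41 apart. Taken from the mean squared gap, which wide gaps weigh on, the SD of a single probe set was 0.57. Pearson's r over these pairs was 0.51, a description over pairs that share the same 2 hybridisations. In 362 pairs at least 1 probe set passed the 2-fold rule, and in 278 of them, 76.8%, the partner had the same sign. Both passed in 98 pairs, in the same direction in 88 and in opposite directions in 10.

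Probe sets made from the same sequence record agreed more closely than those made from different records. For 438 pairs from the same accession the median gap was 0.33 and r was 0.71, against 0.46 and 0.42 for 857 pairs from different accessions. Brightness narrowed the gap. In 394 pairs with every signal above 500 the median gap was 0.31 and 71 of 76 pairs with a call, 93.4%, had the same sign. Against the SD of 0.57 over all pairs, a log2 difference near 1 in a gene read by 1 probe set lies less than 2 SDs from 0. Pairs of the same accession and the bright pairs each gave a smaller SD, 0.43. These SDs describe disagreement between probe sets and not error between replicates.

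**Figure D2:**
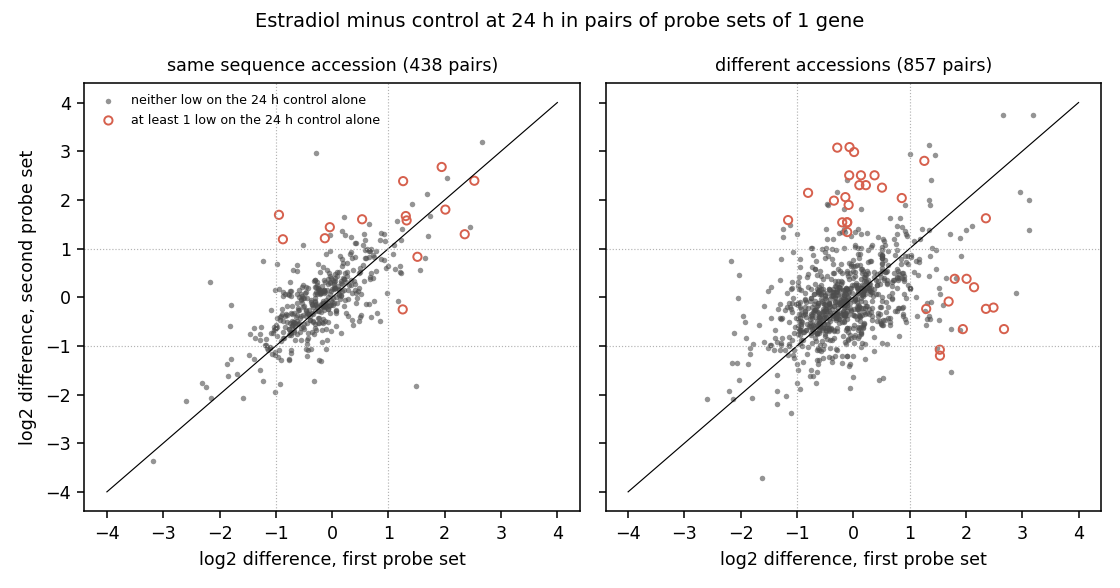
Log2 difference, estradiol minus control at 24 h, in pairs of probe sets of 1 gene, first probe set on the horizontal and second on the vertical axis, for pairs of the same accession (left, 438) and of different accessions (right, 857). Most pairs follow the diagonal, while pairs with a probe set that was dim on the 24 h control alone (red rings) lie off it in the right panel.

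Of the 974 genes read by at least 2 measured probe sets, 35 had all of them higher and 32 had all of them lower. In 251 genes some but not all passed in a single direction, and in 11 genes probe sets passed in opposite directions. All of 3 or more probe sets passed in 9 genes. These were Fdps and Fdft1 of sterol synthesis and the surface glycoprotein Cd24 on the higher side. On the lower side they were Lpl, Dusp1, Agtr1a, Gadd45a, Hivep2 and Cd74. Cd24, a glycoprotein of epithelial and immune cells, read 2543 against 401, 1927 against 212 and 1516 against 113. Gadd45a, a growth arrest and DNA damage gene, differed by log2 values from -2.31 to -1.77 over 4 probe sets, and Hivep2, a zinc finger protein, by -1.90 to -1.27 over 3.

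The genes whose probe sets opposed each other show where one symbol hides unlike readings. Pygb, brain-type glycogen phosphorylase, read 3024 against 1151 on its brightest probe set and 223 against 529 on another. Eci1, an isomerase of fatty acid oxidation, read 315 against 913 on one and 733 against 220 on another. Tpm1, tropomyosin of muscle, read 13375 against 14425 on its brightest probe set, 503 against 173 on a dim one and 515 against 1184 on another. Nos2, inducible nitric oxide synthase, read 351 against 126 and 98.7 against 215. These genes have no single direction, nor has Ptprs, a receptor phosphatase whose probe sets ranged from -1.83 to 1.49, and in counts each stands by its brightest probe set.

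Of the genes named here as past the rule, 81 had at least 2 measured probe sets. In 35 of them every probe set passed in the same direction, and in 46 at least 1 did not. Beside those given below, log2 differences of other probe sets under the rule included 0.04 for Acsl1, -0.47 for Cd55 and -0.03 for Got2. They were 0.07 for Gstk1, 0.46 for Pam, -0.38 for Hsd17b4 and 0.04 for Tpm3. For Mybbp1a the value was 0.40, for Gpam 0.51, for Top2a 0.33, for Ppil3 0.73 and for Cldn3 0.73. For Gclm the values were 0.49 and 0.51, and for Il15 -0.94 and -0.53. For Mdh2 it was 0.87, for Gpc3 -0.84, for Cyp27a1 -0.93 and for Cyp2e1 -0.44.

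A set of readings on the higher side rests on the control array alone. On 186 probe sets the 24 h control was at least 2-fold dimmer than each of the other 3 arrays. By that definition all 186 also counted as higher with estradiol. The same rule found 97 probe sets for the estradiol array at 24 h, 83 for the array labelled control at 6 h and 26 for the array labelled estradiol at 6 h. At a 4-fold margin the counts were 42 for the 24 h control against 7, 10 and 1. In the opposite sense the 24 h control was the brightest array by 2-fold on 36 probe sets. Among the 186, the other 3 arrays lay within 2-fold of each other in 154, and the control was at its floor in 68. These probe sets were not dim in general: the median of their mean signal on the other arrays was 620, against 391 for the remaining higher probe sets.

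Other probe sets of the same genes did not share the dim reading when they came from another accession. Of 51 partners from another accession, 0 were low on the 24 h control alone, and 2, 3.92%, were at least 2-fold higher with estradiol, with a median log2 difference of -0.11. Partners of the other higher probe sets behaved differently, with 70 of 191, 36.6%, higher and a median of 0.58. Among partners of probe sets that did not pass, 8.54% were higher. Partners of the same accession did share it, in 22 of 39 cases. For probe sets low on the estradiol array alone, 8 of 32 partners from another accession were low there too, and for the array labelled control at 6 h 6 of 49. The cause of these readings was not tested.

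**Figure D3:**
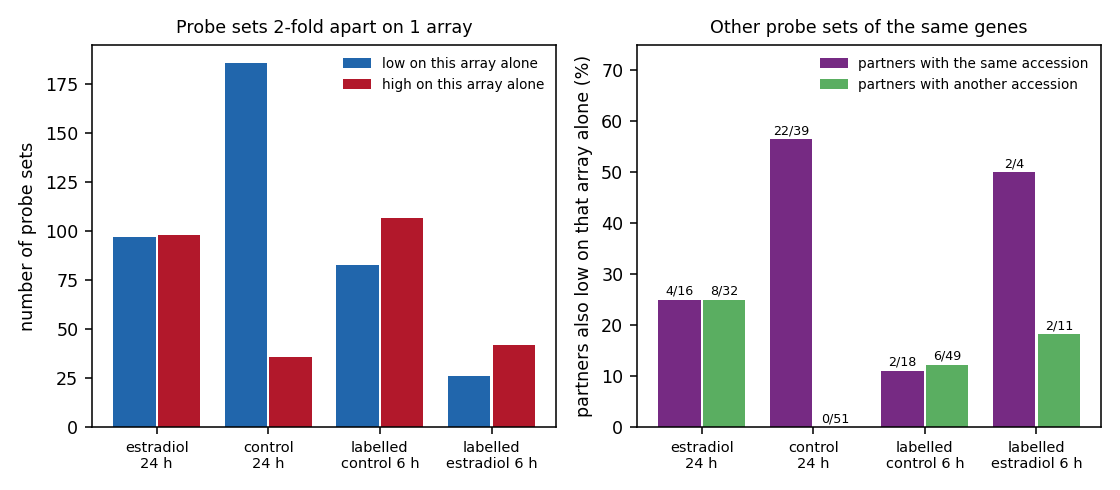
Left, number of probe sets at least 2-fold dimmer (blue) or brighter (red) on 1 array than on each of the other 3; the 24 h control has 186 dim ones. Right, percentage of other probe sets of the same genes that were dim on that array too, by accession; for the 24 h control it was 22 of 39 from the same accession and 0 of 51 from another.

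Genes whose brightest probe set belongs to this class are marked below as dim on the control alone. They make up 126 of the 308 higher genes and leave 182 others. The largest were Scamp2, a protein of secretory vesicles, at 1407 against 61.3, Copz1, a coat protein of Golgi vesicles, 12.8-fold higher, and Psmd11, a proteasome subunit, 11.4-fold. Copz1 read 3786 with estradiol and 297 in the 24 h control, but 3310 and 2328 on the 6 h arrays. Psmd11 read 2682 against 236, with 3090 and 2555 at 6 h. In Pdha1, a subunit of pyruvate dehydrogenase, one probe set read 3133 against 372 and another 877 against 1070. Akt1, a kinase of insulin and growth factor signalling, read 2126 against 518 on one and 964 against 531 on another. Mxi1, a partner of Max, read 464 against 155 on one and 96.9 against 216 on another, which is the opposite direction.

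Among the estrogen response genes 12 of 25 measured were at least 2-fold higher, 48% beside the 8.94% of all genes, and 1 was lower. Their median log2 difference was 0.87. Many of these genes were put on the list because estrogen is known to raise them. Secreted and surface proteins led. Kap, an androgen-regulated kidney protein that the uterus also makes, read 1832 against 25.5 and was at least 18.2-fold higher. Cuzd1, a uterine and pancreatic membrane protein, read 1306 against 62.7, and both its probe sets passed. C3, the central complement component, read 1118 against 10.8 and was at least 11.1-fold higher, and its second probe set read 919 against 37.0. On the other 3 arrays these 3 genes lay below the floor.

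The receptors and effectors of the hormone followed. Hsd11b2 was 7.57-fold higher, Igf1 7.79-fold, Pgr 3.27-fold and S100g 2.74-fold. For Igf1 4 of 5 probe sets passed, with the remaining one at -0.28 on the log2 scale, and Pgr passed on 2 of 3. The second S100g probe set read 7936 against 1040. Oxtr, the oxytocin receptor, read 302 against 93.0, a log2 difference of at least 1.58. Gja1, connexin 43 of the gap junctions between muscle cells, read 229 against 107, 2.13-fold, and with the floor at the 60th percentile its log2 difference was -0.12. Agtr2, the type 2 angiotensin receptor, was at least 3.88-fold higher at 391 against 48.7, while its other probe set read 85.1 against 105. The kinase Sgk1 was 2.21-fold higher. Odc1, the first enzyme of polyamine synthesis, was 6.97-fold higher on a probe set dim on the control alone, and its other probe set read 520 against 217, 2.40-fold. Not past the rule were Esr1 at 195 against 254, Vegfa at 307 against 491, Myc at 315 against 343 and Fos at 567 against 874. Igfbp3, which binds Igf1 in the extracellular space, was the lower member, at 331 against 1023.

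Markers of epithelium were higher in the same pool. Of 11 measured, 6 were at least 2-fold higher, 54.5% beside the 8.94% of all genes, and 1 was lower, at -1.38 on the log2 scale. In all 8 lay above 0 and 3 below. Without probe sets named for shared or mixed probes 4 of 10 were higher and 1 lower. The summed signal of the 11 was 6548 with estradiol and 2172 in the control. The keratins Krt8, Krt18 and Krt19 of simple epithelia were 4.84-fold, 4.25-fold and 4.32-fold higher. Of 5 measured keratins the other 2 lay below 0, the lowest at -0.46 on the log2 scale. Krt8 read 996 against 206, and both probe sets of Krt18 and of Krt19 passed. Epcam, the epithelial adhesion molecule, read 355 against 127, and Cldn3, a tight junction protein, read 420 against 160. In a bulk pool more cells of a type and more RNA per cell cannot be told apart. The part of epithelial RNA in the higher values of Kap, C3, Cuzd1, Pgr and other genes was not tested.

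Sterol synthesis had the highest median of the 48 lists, at 1.72, and 1.39 without its member dim on the control alone, when the epithelial markers stood marginally higher at 1.40. The pathway builds cholesterol from acetyl units and is held in check by sterols through the SREBP factors and Insig1. Of 14 measured genes 8, 57.1%, were at least 2-fold higher, 0 were lower and 13 lay above 0. The higher members lay at early and late steps. Acat2, which joins acetyl units, read 1573 against 143 but was dim on the control alone. In the mevalonate branch Mvd, the mevalonate diphosphate decarboxylase, read 451 against 29.6, Idi1, the isopentenyl isomerase, 987 against 71.7, and Fdps, the farnesyl diphosphate synthase, 1744 against 423.

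In the later steps Fdft1, the squalene synthase, read 606 against 73.2, and Sqle, which oxidises squalene, read 942 against 184. Cyp51, the lanosterol demethylase, read 3034 against 348, and Msmo1, a methyl sterol oxidase, read 1899 against 724. All 3 probe sets of Fdps, all 4 of Fdft1 and 4 of 5 of Cyp51 passed. The feedback genes did not share this. Of 9 measured, Insig1 alone passed, at 1341 against 354, and the median was -0.28.

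Promoters of 12 of the 14 measured sterol genes were found by symbol in the RefSeq promoters of build GRCr8, each running from 250 bases before the gene start to 50 after it. They are shown because the list had the highest median. The CCAAT box, a site of the factor NF-Y that works beside SREBP, was searched on both strands. It was in 9 of the 12, in 4 of the 6 among them that were called higher, and in 37.7% of all 27457 promoters of this length. Of the folding promoters 13 of 16 held it too, and of the clock promoters 7 of 8. A stricter sterol regulatory element, TCACNCCAC, was in 0 of the 12 and in 1.13% of all. The promoters of 4 genes of the pathway, all at least 4-fold higher, are given 5′ to 3′ on the strand of the gene, with CCAAT or its reverse complement ATTGG in capitals: Idi1 (chr17:66547475-66547774, minus strand), Fdps (chr2:176804767-176805066, minus strand), Mvd (chr19:67414925-67415224, minus strand) and Cyp51 (chr4:30991443-30991742, plus strand), the last without a match.
Idi1: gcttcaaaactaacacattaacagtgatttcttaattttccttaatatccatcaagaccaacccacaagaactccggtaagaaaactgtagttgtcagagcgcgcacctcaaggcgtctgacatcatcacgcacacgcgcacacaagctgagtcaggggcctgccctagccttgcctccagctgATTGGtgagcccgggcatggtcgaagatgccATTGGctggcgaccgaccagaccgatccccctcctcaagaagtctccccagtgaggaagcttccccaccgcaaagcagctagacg
Fdps: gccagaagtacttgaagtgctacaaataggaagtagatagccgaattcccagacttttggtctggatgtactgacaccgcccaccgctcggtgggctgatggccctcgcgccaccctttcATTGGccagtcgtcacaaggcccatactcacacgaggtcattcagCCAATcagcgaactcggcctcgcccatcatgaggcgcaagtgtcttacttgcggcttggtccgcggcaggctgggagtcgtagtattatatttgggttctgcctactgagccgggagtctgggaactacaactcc
Mvd: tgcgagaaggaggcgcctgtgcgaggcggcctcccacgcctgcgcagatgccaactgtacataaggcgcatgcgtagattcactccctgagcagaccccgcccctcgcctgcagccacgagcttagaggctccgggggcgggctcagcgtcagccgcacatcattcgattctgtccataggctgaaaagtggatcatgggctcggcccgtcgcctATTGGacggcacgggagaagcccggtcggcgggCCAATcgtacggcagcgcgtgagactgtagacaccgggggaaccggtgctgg
Cyp51: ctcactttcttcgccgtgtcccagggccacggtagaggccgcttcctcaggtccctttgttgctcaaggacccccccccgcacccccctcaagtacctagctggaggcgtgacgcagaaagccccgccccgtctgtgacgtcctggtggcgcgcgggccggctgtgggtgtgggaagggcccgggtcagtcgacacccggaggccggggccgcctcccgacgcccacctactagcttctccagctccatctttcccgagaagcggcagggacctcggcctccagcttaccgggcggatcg
In Idi1 the boxes start at -66 and -35 from the gene start, in Fdps at -130 and -85, and in Mvd at -35 and -2. Cyp51 was 8.73-fold higher without this motif in the window, which says only that these letters are not in it.

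Of 14 measured genes of fatty acid synthesis and its supply, 5, 35.7%, were at least 2-fold higher and 0 lower. In all 13 lay above 0, with a median of 0.81. Scd, the stearoyl desaturase, read 505 against 66.7 and was at least 5.01-fold higher. Me1, the malic enzyme that supplies NADPH, read 641 against 232, though only 1 of its 4 probe sets passed. Acsl1, which activates fatty acids, was at least 2.84-fold higher, and Gpam, which starts glycerolipid synthesis, at least 2.60-fold. Slc25a1, the mitochondrial citrate carrier, was 3.60-fold higher but dim on the control alone. When each gene was read by the mean over its probe sets, 2 of the 14 passed.

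Of 18 measured genes of fatty acid oxidation and uptake, 1 was higher and 3 were lower, 5.56% and 16.7%. In all 15 lay below 0, and the median was -0.59. One of the 3 is Eci1, whose probe sets opposed each other, and without probe sets named for shared or mixed probes 2 were higher and 2 lower. Lpl, the lipase that releases fatty acids from lipoproteins at the vessel wall, read 456 against 2775, 6.08-fold lower, and 3 of 3 probe sets passed. Lpl was also at least 2-fold brighter on the 24 h control than on every other array. Fabp3, a fatty acid carrier of muscle, read 107 against 263. Hadhb, a subunit of the mitochondrial trifunctional protein, was the higher member at 1137 against 506. Of the 5 measured adipocyte markers all lay below 0, Lpl and Cfd past the rule, and their summed signal was 2808 against 6290. The part of fat cells carried with the tissue in these values was not tested.

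**Figure D4:**
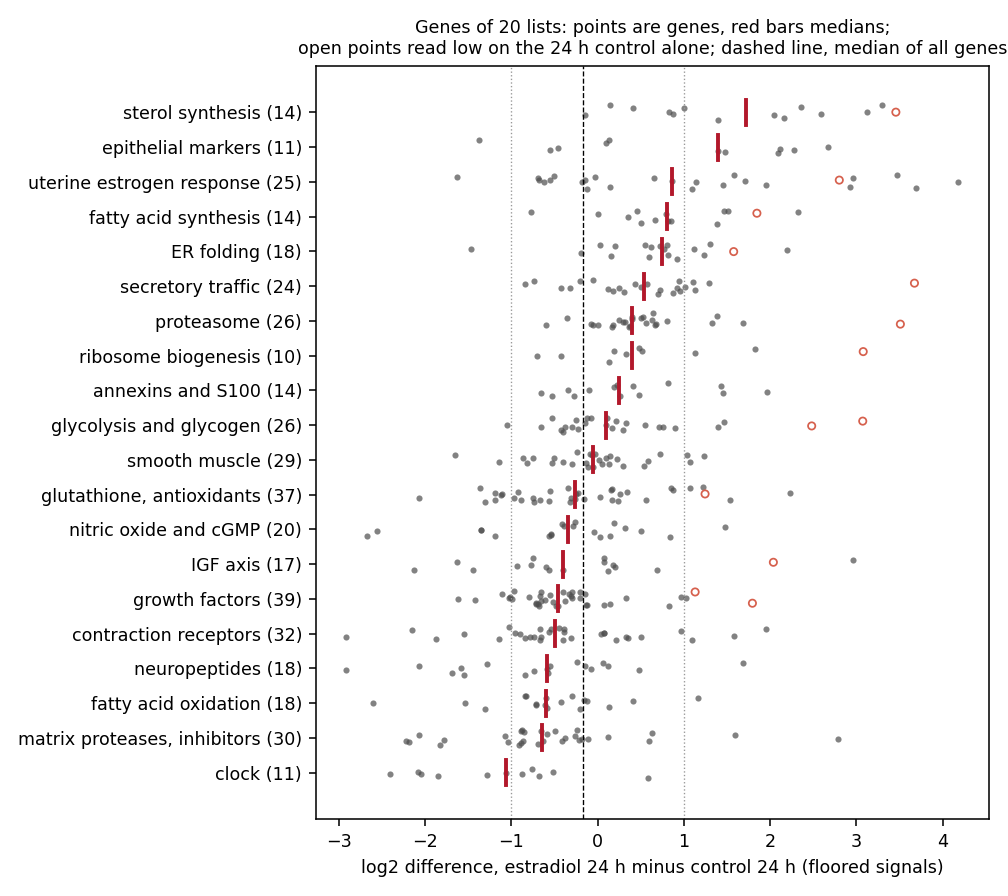
Log2 difference, estradiol minus control at 24 h, of the measured genes (points) of each list, with the list median as a red bar and the number of genes in brackets. Sterol synthesis has the highest median, 1.72, and clock genes the lowest, -1.06; the dashed line is the -0.17 of all genes, and open points were dim on the 24 h control alone.

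Endoplasmic reticulum folding genes were on the higher side, with 16 of 18 above 0 and a median of 0.75. Past the rule 5 were higher and 1 lower, 27.8% and 5.56%. Chaperones and disulfide isomerases of the lumen fold secreted and membrane proteins. Pdia6, a disulfide isomerase, read 6525 against 2639, and Hsp90b1, the lumenal Hsp90, read 5496 against 2336. Vcp, the ATPase that pulls misfolded proteins out of the membrane, read 3728 against 1715, and Dnajb9, a co-chaperone, read 460 against 54.3. Erp29 was 2.98-fold higher and dim on the control alone. Hspa5, the chief lumenal Hsp70, was 1.65-fold higher on its brightest probe set, at 4503 against 2726, under the rule. Its other measured probe set passed, at 1784 against 774, 2.31-fold higher. Ddit3, the transcription factor of the terminal stress response, was lower, at 190 against 527. With the mean of probe sets 3 of the 18 passed on the higher side. The other 2 Hsp90b1 probe sets read 0.43 and 0.33 on the log2 scale, and the other Vcp probe set 0.75.

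The endoplasmic reticulum stress response element, CCAAT and CCACG with 9 bases between them, was chosen after the data were seen and searched on both strands in the promoters of the 16 folding genes found in RefSeq. The element overlaps the CCAAT box by design. It is named for the stress response of this compartment, so its share among these genes is a description and no test. It was in 4 of the 16, in 0.212% of the promoters of measured genes and in 0.0765% of all promoters. Of the 4 folding genes, Hsp90b1 passed the 2-fold rule by its brightest probe set, and the chaperones Hspa5, Calr and Canx did not. The promoters of Hspa5 (chr3:38452766-38453065, plus strand) and Hsp90b1 (chr7:23012244-23012543, minus strand) are shown with the element in capitals. This pair of lumenal chaperones lay on either side of the rule by brightest probe set only. In both genes some probe sets passed and some did not. Coordinates are those of GRCr8.
Hspa5: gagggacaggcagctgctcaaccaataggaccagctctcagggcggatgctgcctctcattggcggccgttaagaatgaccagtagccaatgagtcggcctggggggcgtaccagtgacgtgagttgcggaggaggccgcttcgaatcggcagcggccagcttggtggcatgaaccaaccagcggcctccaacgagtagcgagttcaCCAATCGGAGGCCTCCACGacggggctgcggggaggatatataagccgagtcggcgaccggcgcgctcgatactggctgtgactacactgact
Hsp90b1: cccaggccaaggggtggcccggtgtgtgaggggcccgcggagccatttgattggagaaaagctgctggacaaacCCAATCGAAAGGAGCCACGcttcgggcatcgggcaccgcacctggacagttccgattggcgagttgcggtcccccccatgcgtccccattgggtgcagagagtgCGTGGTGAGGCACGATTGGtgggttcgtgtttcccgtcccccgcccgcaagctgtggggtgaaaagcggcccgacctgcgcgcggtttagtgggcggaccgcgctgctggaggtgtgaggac
The Hspa5 element starts at -43 from the gene start, and those of Hsp90b1 at -176 and -72, the second on the other strand.

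Beyond folding, 5 of 24 measured genes of secretory traffic passed, 20.8% beside the 8.94% of all genes. All 5 were higher, and the list median was 0.54. The translocon subunits Sec61a1 and Sec61b, through which new proteins enter the reticulum, read 1140 against 528 and 4841 against 2210. Gosr2, a Golgi SNARE, read 309 against 127, and Ykt6, another SNARE, was at least 2.01-fold higher. The remaining member, Copz1, was dim on the control alone.

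Proteasome genes were shifted by a smaller amount, with 22 of 26 above 0 and a median of 0.40. Past the rule 4 were higher, 15.4% beside the 8.94% of all genes, and 0 lower. Without probe sets dim on the control alone 3 of 25 were higher. Psmd2 read 1731 against 536, Psmc3 1375 against 528 and Psmc5 1354 against 540, all parts of the regulatory particle that unfolds substrates. The remaining member, Psmd11, was dim on the control alone. Of 10 ribosome biogenesis genes 3, 30%, were higher and 0 lower. Mybbp1a, a nucleolar protein, read 1512 against 426, and Ddx21, a nucleolar helicase, read 832 against 380. Dkc1, the pseudouridine synthase, was dim on the control alone with both probe sets of 1 accession. Cytosolic ribosomal proteins differed little. None of the 13 small subunit proteins passed, and of 29 large subunit proteins the 2 that were higher, Rpl4 and Rpl36al1, were dim on the control alone. Tars1, the threonine tRNA synthetase, was the higher member of 17 translation genes, at 1966 against 918.

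In polyamine metabolism Amd1, which supplies the aminopropyl donor, read 639 against 289. With Odc1 it made 2 of 8 measured genes higher, 25% beside the 8.94% of all genes. Central carbon enzymes gave mixed counts. In glycolysis and glycogen metabolism the median was 0.10, and 4 of 26, 15.4%, were higher against 1 lower, 3.85%. Of the 4, 2, Pdha1 and Taldo1, were dim on the control alone. Pgk1, phosphoglycerate kinase, read 6053 against 2199 and 1711 against 395 on its 2 probe sets. Pygb, also of glycogen metabolism, has the opposed probe sets given above and so no single direction. Pygm, muscle glycogen phosphorylase, was lower at 429 against 886. In the citric acid cycle and its exchange reactions 5 of 14 were higher, 35.7%. Among them were Mdh2 at 4985 against 2004, Idh1 at 1314 against 559 and Got2 at 1658 against 740. Cs, citrate synthase, is counted among the 5 and was dim on the control alone. The glutamine synthetase Glul was lower on its brightest probe set, at 1303 against 2776. Another passed at 268 against 659, while those at 1583 against 2403 and 1009 against 1587 did not. Slc25a5, the ADP and ATP carrier of mitochondria, read 8182 against 3374.

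The Gapdh control probe sets of the array, which read a glycolytic enzyme often taken as constant, were not equal. Their 3′ set read 12029 against 5192, their middle set 10191 against 5566 and their 5′ set 10441 against 4945, that is 1.83-fold to 2.32-fold higher. On the 6 h arrays all 3 read between 5012 and 5760. The beta-actin control sets were 0.799 to 0.980 times the control value.

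The insulin-like growth factor axis held genes at both ends. Igf1 was 7.79-fold higher, while its receptor Igf1r read 162 against 707, 4.37-fold lower, and its second probe set 211 against 350. The binding protein Igfbp6, which prefers Igf2, read 2955 against 8013, and both Igfbp3 probe sets were lower, the second at 90.7 against 1195. In all 2 of 17 genes of the axis were higher, with Akt1 dim on the control alone, and 3 were lower. These shares were 11.8% and 17.6%. Igfbp5 split by probe set, with 562 against 830 on the first and 937 against 89.1 on one that was dim on the control alone, and is named because of that split, seen in its values.

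Growth factors and their receptors had a median of -0.46, beside the -0.17 of all genes, and 31 of 39 measured lay below 0. Past the rule 3 were higher and 5 lower, 7.69% and 12.8% beside the 8.94% and 8.65% of all genes. That split became 4 and 2 with arrays scaled to a common median. Tgfb3, a member of the TGF-beta family, read 240 against 738, and Ntf3, neurotrophin 3, read 192 against 512. Smad4 and Pdgfa, 2 of the 3 higher, were dim on the control alone, and the other Pdgfa probe set read 47.1 against 106. Inhbb, the activin beta B subunit, was at least 2.03-fold higher. Flt1, a VEGF receptor of endothelium, was 2.01-fold lower, and the 6 measured endothelial markers all lay below 0.

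Of 32 measured genes for receptors and junctions of contraction, 9.38% were higher and 18.8% lower, beside the 8.94% and 8.65% of all genes. The 3 higher, a share near that of all genes, were Oxtr, Gja1 and Agtr2, and 6 were lower. None was higher with the floor at the 60th percentile or without probe sets named for shared or mixed probes, which left 2 and 3 lower. Galr2, a galanin receptor, read 191 against 1438, 7.53-fold lower. Agtr1a, the type 1 angiotensin receptor that drives contraction, read 254 against 1131, with 4 of 4 probe sets lower by 2.55-fold to 4.45-fold, 1 of these a lower bound. Calcrl, the receptor for calcitonin gene-related peptide and adrenomedullin, read 124 against 363. Mme, an endopeptidase that cleaves peptide hormones, was at least 3.66-fold lower and brightest on the 24 h control alone. Agtr1a and Agtr1b are near-identical copies, so their probe sets may share transcript, and both are counted among the 6 lower.

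Relaxation through nitric oxide and cyclic GMP held 5 lower genes of 20 and 1 higher. The shares of 25% and 5% stand beside the 8.65% and 8.94% of all genes. Both subunits of soluble guanylyl cyclase, the receptor for nitric oxide, were lower. Gucy1a1 read 195 against 1241 and Gucy1b1 173 against 442. The phosphodiesterases Pde1b and Pde2a, which break down cyclic nucleotides, were at least 5.89-fold and 2.54-fold lower, and Cav1, the caveolar protein that holds the endothelial synthase, read 1000 against 2286 and was brightest on the 24 h control alone. The higher member was Nos2, whose probe sets opposed each other.

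Calcium stores showed 19 of 22 measured genes below 0, with a median of -0.47. Past the rule 0 were higher and 2 lower, 9.09%, near the 8.65% of all genes. Atp2a3, a calcium pump of the sarcoplasmic reticulum, read 305 against 1223, and Pln, the pump inhibitor phospholamban, 124 against 391. Among 12 measured genes of voltage-gated calcium channels, 2 were lower, Cacna1b by at least 4.32-fold and Cacna1d by at least 4.29-fold. The potassium channels gave 2 higher and 3 lower of 29, 6.90% and 10.3%, which is also near the shares of all genes. Kcnma1, the large-conductance channel of smooth muscle, was at least 2.36-fold lower, and Kcnj11, a subunit of the ATP-sensitive channel, at least 2.12-fold. Kcns3 read 310 against 114. Scn7a, a sodium channel of glia and smooth muscle, read 92.7 against 482, and its other probe set 174 against 377.

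In neuropeptide genes 6 of 18 were lower and 1 higher, 33.3% and 5.56% beside the 8.65% and 8.94% of all genes. Cpe and Pam, enzymes that trim and amidate peptide hormones, read 519 against 2172 and 1140 against 3687, and Npy1r, a receptor for neuropeptide Y, 106 against 317. Tac1, the substance P precursor, was at least 3.22-fold higher on one probe set, while the other read 92.2 against 50.6, a log2 difference of -0.13 after the floor. The 7 measured nerve markers all lay below 0 and none passed. Their summed signal was 4121 against 6960, and its part in these values was not tested.

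Contractile proteins as a list stayed near 0, with a median of -0.06. Of 29 measured, 3 were higher and 2 lower, 10.3% and 6.90%, near the shares of all genes. Rhoa, the GTPase that sensitises muscle to calcium, read 1138 against 484, Tpm3, a tropomyosin, 4982 against 2375 and Csrp2, a LIM protein, 657 against 320. The lower pair were Pdlim3 at 1448 against 4567 and Cnn3 at 1230 against 2715. Acta1, actin of striated muscle, read 7999 against 2676. Probe sets for near-identical actins may share transcript.

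Of 17 measured genes of steroid metabolism Hsd11b2 alone was higher, 5.88%, and 3 were lower, 17.6%. The median of the 17 was -0.19, close to that of all genes. Hsd17b4, a peroxisomal dehydrogenase, read 487 against 1155, Sts, the steroid sulfatase, 109 against 256 and Cyp21a1, the 21-hydroxylase, 136 against 315. Sult1a1, a sulfotransferase of phenols and steroids, read 149 against 1096, 7.34-fold lower, with both probe sets past the rule. Slco2a1, the carrier that takes up prostaglandins, was 7.65-fold higher at 1726 against 226 and the sole member past the rule of 19 prostaglandin genes.

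Cytochrome P450 genes showed 26 of 29 measured below 0, with a median of -0.58. On the lower side 8 passed, 27.6%, and the 1 higher gene was Cyp51. Cyp2e1, which oxidises small molecules, read 176 against 504, and Cyp27a1, the sterol 27-hydroxylase, 224 against 637. Of 12 glutathione S-transferases 10 lay below 0 and 3 passed on the lower side, Gsta4, Gstm5 and Gstm7, against the higher Gstk1. Mgst1, the microsomal form, read 1249 against 3074, and Cat, catalase, 229 against 590. Gpx2, the glutathione peroxidase of epithelia, was at least 4.69-fold higher, and Gclm, a subunit of the enzyme that starts glutathione synthesis, read 367 against 157. Over the whole glutathione and antioxidant list 5 of 37 were higher and 7 lower, 13.5% and 18.9%. That balance became 6 and 5 with a common median, and 1 and 11 when probe sets were averaged by gene.

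Matrix genes gave counts on both sides. Of 40 measured, 5 were higher and 6 lower, or 8 and 4 with a common median. The shares of 12.5% and 15% stand beside the 8.94% and 8.65% of all genes. Efemp1, a glycoprotein of elastic fibres also called fibulin 3, read 470 against 4250 and 116 against 1193 on its 2 probe sets, and was 9.04-fold lower on the first, the largest lower fold of any gene by its brightest probe set. Postn, periostin, read 1070 against 5270, Gpc3, a glypican that binds growth factors, 425 against 1603, and Sparcl1, a SPARC relative, 2571 against 7584. On the higher side Spon1, an F-spondin, read 711 against 110 and Vcan, versican, 586 against 152. Loxl1, which crosslinks elastin, read 1852 against 497 on one probe set and 711 against 1133 on another. Col15a1 was 8.46-fold higher and dim on the control alone.

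Proteases and their inhibitors leaned lower, with 25 of 30 below 0 and a median of -0.65. Past the rule 7 were lower and 2 higher, 23.3% and 6.67%. Mmp7, matrilysin, which epithelia make, read 872 against 126, and Plaur, the urokinase receptor, 394 against 131. Mmp11, stromelysin 3, read 243 against 1133. Several inhibitors were among the lower genes. Cst3, the cysteine protease inhibitor cystatin C, read 3506 against 12399 on one probe set and 5629 against 8507, under the rule, on its partner from the same accession. Serping1, which holds complement C1, read 342 against 1170, and Serpine2, which blocks thrombin, was at least 4.53-fold lower and brightest on the 24 h control alone. Plat, the tissue plasminogen activator, read 1014 against 2138.

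In the chemokine and cytokine list 2 of 31 genes were higher and 3 lower, 6.45% and 9.68%, which is near the 8.94% and 8.65% of all genes. Ccl11, eotaxin, which draws eosinophils, read 2073 against 211 and was 9.82-fold higher, the largest by brightest probe set among genes measured on both arrays and not dim on the control alone. Il15, which supports natural killer cells, read 143 against 532, Il33, an alarmin, 416 against 1030, and Cxcl13, which draws B cells, 100 against 524. In complement, C3 and the decay factor Cd55 at 378 against 132 were higher, while Cfd, Clu and Serping1 were lower. Clu read 1136 against 2646, and Cfd, complement factor D of fat cells, was at least 6.28-fold lower.

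Class II genes of antigen presentation differed between probe sets. RT1-Da read 1034 against 3554 on one and 448 against 855, under the rule, on another. RT1-Ba read 479 against 1009, 378 against 384 and 377 against 198 on its 3 probe sets. In contrast all 4 probe sets of Cd74, the class II invariant chain, were lower, the brightest at 1019 against 2141. Of 13 MHC genes 12 lay below 0 and 4, 30.8%, passed, 0 on the higher side. Macrophage and leukocyte markers, which hold several of these genes, numbered 5 lower and 3 higher of 13, 38.5% and 23.1%. With a common median 2 were lower and 3 higher. Fcgr2b, a receptor for antibody, read 283 against 117 and Cd53, a leukocyte tetraspanin, 120 against 309. Lyz2, lysozyme, was 3.25-fold higher and dim on the control alone. RT1-Bb read 289 against 613 on one probe set and 364 against 89.4 on another that was dim on the control alone, so it has no single direction.

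The clock list had the lowest median, -1.06, with 10 of 11 genes below 0. Of these 6 were at least 2-fold lower, 54.5% beside the 8.65% of all genes, and 0 were higher. Per2, a repressor of the clock, read 143 against 756, and Dbp, an output transcription factor, 464 against 1674 and 130 against 618 on its 2 probe sets. The nuclear receptors Nr1d2 and Nr1d1 read 311 against 1316 and 487 against 1181. Csnk1d, the kinase that marks the Per proteins, read 282 against 1167 on its brightest probe set and 554 against 564 on the other. Wee1, a clock-controlled kinase of the cell cycle, read 179 against 373. Both pools are labelled 24 h, and the hour of the day at collection is not given in the sources used here. With arrays scaled to a common median 5 of the 11 were lower.

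Early response genes gave 2 of 30 higher and 4 lower at 24 h, or 5 and 2 with a common median. The shares of 6.67% and 13.3% stand beside the 8.94% and 8.65% of all genes. Dusp1, a phosphatase of MAP kinases, read 113 against 523, with 3 of 3 probe sets lower, and Klf9, a hormone-regulated zinc finger factor, 619 against 1349. Dusp6 read 372 against 128 on a probe set dim on the control alone and 149 against 314 on another. Cell cycle genes gave 2 higher and 1 lower of 31, 6.45% and 3.23%, under the shares of all genes. Ccnb1, cyclin B1, was at least 2.12-fold higher at 213 against 69.7, and Top2a, topoisomerase 2, read 245 against 117. Ccnd1, cyclin D1, chosen after its values were seen, read 1594 against 875 and 1134 against 656 on 2 probe sets, under the rule, 369 against 432 on another, and 633 against 42.7 on one dim on the control alone. Wnt and Notch genes gave 0 higher and 2 lower of 21, one of them Csnk1d, and the lower share was 9.52%.

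Among heat shock proteins of the cytosol and mitochondria 2 of 25 were higher and 1 lower, 8% and 4%, under the shares of all genes. Hspe1, the mitochondrial co-chaperonin, read 6049 against 2594, and Trap1 was dim on the control alone. S100a10, the partner of annexin A2, read 4170 against 1069, and Anxa4, an annexin of epithelia, was at least 2.69-fold higher. Other single differences past 4-fold on both arrays were Morf4l2, a chromatin protein, at 7793 against 1565 and Ppil3, a cyclophilin, at 760 against 183 on the higher side. On the lower side Ints6l, an Integrator-related protein, read 253 against 1111, and Marcks, a substrate of protein kinase C, 372 against 1668, but the other Marcks probe sets read 0.32 and 0.74 on the log2 scale.

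**Figure D5:**
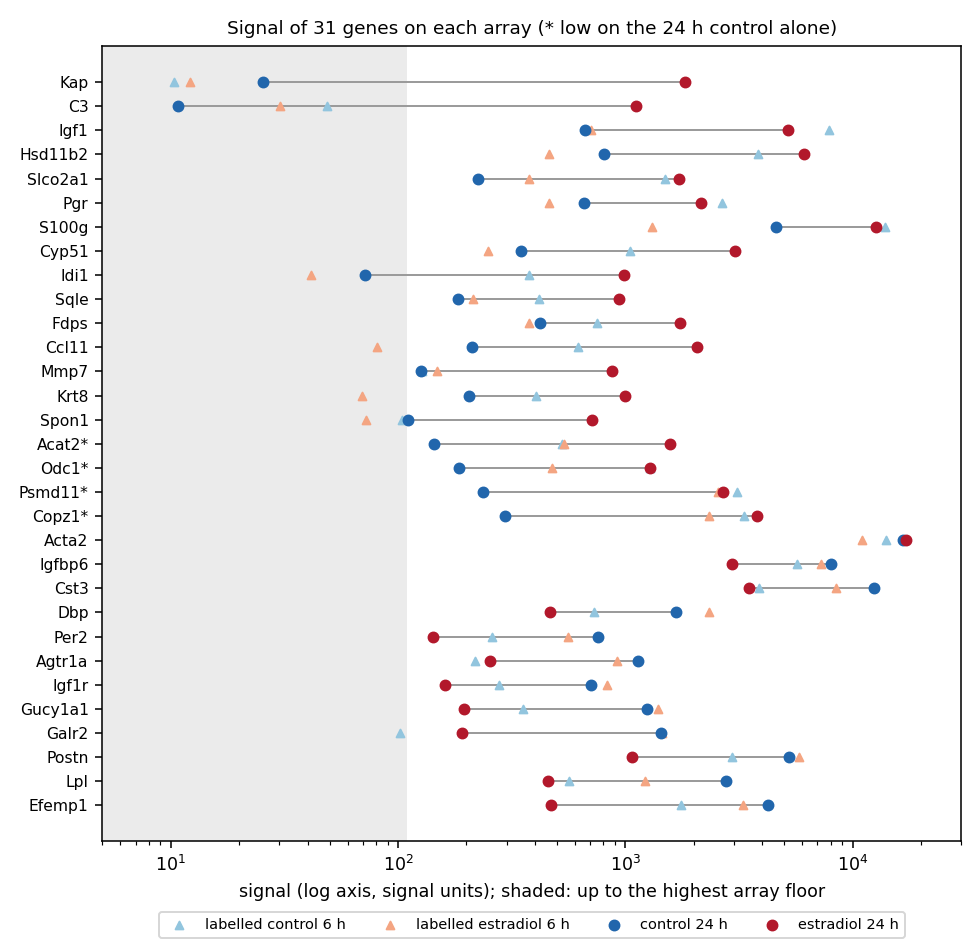
Signals of genes named in the text on all 4 arrays (log axis, signal units), circles for the arrays at 24 h and triangles for those labelled 6 h, with a line joining the 24 h pair. Genes marked with a star, such as Psmd11 and Copz1, read low on the 24 h control and high on the other 3 arrays, while for Igf1, S100g and Pgr the array labelled control at 6 h lies near the estradiol array at 24 h.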

How the data were processed

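Total RNA of rat myometrium, pooled from 6 animals per group, was hybridised to 1 RG_U34A array per group. The intensity values used are probe set signals that the authors deposited in 1 table, made with MAS5 per the submitters' processing notes, with version and settings not given in the sources used here. MAS5 subtracts mismatch signal and scales each array, and the deposited intensities had a 2% trimmed mean of 500. Wash, scan and lot fields come from the deposited instrument records, per the file headers.

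Signals were raised to the 40th percentile of each array and turned to log2 (Python 3.11.15, pandas 2.3.3, numpy 2.4.6). By the platform annotation, 7018 probe sets have exactly 1 symbol and are named; 308 have more than 1 and 1473 have none. Gene identifiers of 6994 were found in RefSeq, which changed 0 symbols. A probe set was low on 1 array alone when at least 2-fold below each of the other 3. Lists of 48 gene groups and 58 symbol families were summarised by counts and medians over measured genes. The comparison, the lists and the motifs were chosen with earlier results of these data known. Named genes are up to 8 per list past 2-fold, genes with 3 or more probe sets all past it, the 15 largest per direction, the 15 largest dim on the control alone, 10 with opposed probe sets and genes fixed by name; not all are named. Alternatives changed scaling, floor, fold rule and the choice of probe set. The rule was run on simulated signals with 8-fold changes in bright probe sets and less noise than these arrays show. That run cannot give the error of calls near 2-fold or of dim signals here. With 1 array per group, the number of arrays limits the precision and no spread between replicates exists.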

Additional observations from a re-analysis of the deposited data

Results flagged for a closer look

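For the genes below, the difference between the array labelled estradiol and the array labelled control at 6 h passed 2-fold in the direction opposite to that at 24 h. Each contrast is 1 array against 1 array, and the difference between the times was not tested. Since Igf1, Pgr, S100g and Hsd11b2 go against the labels at 6 h, the 6 h sign is that of the labels as deposited. Values are log2 differences at 6 h, estradiol label minus control label.

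Higher with estradiol at 24 h and lower on the array labelled estradiol at 6 h were the hormone targets Igf1 (-3.48), S100g (-3.41), Hsd11b2 (-3.06), Pgr (-2.53), Slco2a1 (-1.98), Sgk1 (-1.67), Odc1 (-1.43) and Oxtr (-1.03). The sterol genes Cyp51 (-2.07), Idi1 (-1.88), Insig1 (-1.59), Mvd (-1.51) and Fdft1 (-1.04) did the same. So did the epithelial markers Cd24 (-2.87), Krt18 (-2.34), Krt8 (-1.98) and Krt19 (-1.25), and Ccl11 (-2.59), Plaur (-1.74) and Fcgr2b (-1.35). In protein synthesis, turnover and energy supply the genes were Mybbp1a (-1.94), Tars1 (-1.54), Ddx21 (-1.24), Psmc5 (-1.22), Hspe1 (-1.16) and Slc25a5 (-1.10), and among muscle proteins Acta1 (-1.47) and Csrp2 (-1.24).

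Lower with estradiol at 24 h and higher on the array labelled estradiol at 6 h were Galr2 (3.74), Agtr1a (2.08), Gucy1a1 (1.97), Gucy1b1 (1.62), Pln (1.79) and Atp2a3 (1.21) of receptors and relaxation. Among metabolic enzymes they were Cyp27a1 (2.39), Sult1a1 (2.22), Cat (1.64), Mgst1 (1.56), Pygm (1.49), Cyp21a1 (1.26) and Lpl (1.11). Clock genes Nr1d1 (1.76), Dbp (1.68), Per2 (1.11) and Nr1d2 (1.05) also turned, as did Igfbp3 (2.0) and Igf1r (1.58). The remaining genes were Il33 (2.17), Ints6l (2.02), Hivep2 (1.67), Pdlim3 (1.59), Il15 (1.48), Klf9 (1.35) and Cst3 (1.13).

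Nos2 (-1.69), Eci1 (1.10) and Ptprs (1.55) met the same criterion on their brightest probe set alone. Their probe sets opposed each other at 24 h, so no direction is given for them.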

How the results depend on the processing

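No paired analysis was possible because each group is 1 array, and no replicate could be left out. Beside the 511 higher and 515 lower probe sets stand 828 and 1045 with the floor at the 20th percentile, 290 and 254 at the 60th, 911 and 1394 with a 1.5-fold rule and 229 and 121 with a 3-fold rule. For genes the 308 higher became 178 with the floor at the 60th percentile, 544 at 1.5-fold and 154 at 3-fold, and the 298 lower became 570 with the floor at the 20th percentile, 158 at the 60th, 812 at 1.5-fold and 65 at 3-fold. Without the probe sets low on the 24 h control alone, 325 probe sets and 187 genes were higher. Those 186 probe sets became 317 and 88 with the floors at the 20th and 60th percentiles, and 330 and 89 with the 1.5-fold and 3-fold rules. Values as deposited, a common median, quantile normalization, a pseudocount of 32 and averaging the probe sets of a gene kept each count they apply to within 1.5 times. Relative to all genes, the epithelial median became 0.58, the macrophage median 0.41 (reversed) and the blood median 0.32 without probe sets named for shared or mixed probes, and the adipocyte median -1.25 with the pseudocount. The cause was not tested. The other list medians moved by less than the probe-set SD of 0.57. Single genes that turned were, without probe sets low on the control alone, Dusp6 (-1.08), Mxi1 (-1.16), Pdgfa (-0.25) and Pdha1 (-0.29). Without probe sets for shared or mixed probes they were Cd55 (-0.47), Eci1 (1.74), Loxl1 (-0.67), Mxi1 (-1.16), RT1-Ba (0.93) and RT1-Bb (1.85). With averaged probe sets RT1-Bb (0.38) turned, and Gja1 (-0.12) and Top2a (-0.026) with the floor at the 60th percentile did. Signals near the floor limit what dim genes can show.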
